A study of Homo sapiens with 15 samples.

Results

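The 9 genes described here are the transcription factor NRF2 (gene NFE2L2), its inhibitor KEAP1 and 7 genes known as NRF2 targets, out of 58381 genes counted in bulk RNA-seq of VCaP sublines. They were taken by name from the NRF2 pathway, and the list was chosen by 1 measured value, the near loss of NQO1 in one subline, VCaP-CT-ER. The values of NQO1 are therefore given as a description without a test, and the other 8 genes were tested. Earlier results of these data were also known when these 8 genes and the related pathway lists were chosen, so their choice was not blind. All 9 genes were listed in every library and passed the filter on low counts that left 19621 genes.

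The established line VCaP is a prostate cancer line that responds to androgen, and 5 sublines derived from it were sequenced with 3 libraries each. All 5 were grown in RPMI 1640 with 10% charcoal-stripped serum and share a first period of 7 months with 10 nM testosterone, which established VCaP-T. According to the protocol, VCaP-CT was made from VCaP-T by lowering testosterone to 0.1 nM for another 10 months, a model of androgen deprivation, whereas the treatment label of the samples gives 10 nM for those months. VCaP-CT-ER grew out of VCaP-CT under 10 µM enzalutamide (ENZ), an antiandrogen, and VCaP-CT-BR grew out of VCaP-CT under bicalutamide, an older antiandrogen, at a dose that the labels do not give. VCaP-CT-BR-ER was obtained from cells insensitive to bicalutamide that were then kept under ENZ. In the sample labels, ENZ is named after bicalutamide for VCaP-CT-BR as well. Since each subline stands for 1 derivation, treatment, time in culture and derivation cannot be told apart, and the p-values measure the spread between the 3 libraries of a subline. The study describes these as biological replicates, and the labels do not say whether they came from separate cultures.

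The libraries held 33665716 to 46935279 counted fragments, and 3 counts corresponded to 0.0621 to 0.0905 CPM, that is counts scaled to library size. The lowest correlation between libraries of the same subline (0.9913) was above the highest between sublines (0.9802). The 9 markers of prostate luminal cells, among them KLK3 and KRT8, were each at 1 CPM or more in every subline, and their summed level was 3833.8 to 3917.0 CPM in VCaP-CT, 4415.8 to 4680.4 CPM in VCaP-CT-BR and 7547.4 to 8561.9 CPM in the other 3 sublines. The 4 leukocyte markers were each under 1 CPM, with PTPRC at 0 in every subline but VCaP-CT-BR and CD3E at 0 throughout. The 3 basal markers summed to 0.194 to 11.1 CPM and the 3 endothelial markers to 0.0745 to 16.3 CPM, both highest in VCaP-T. The 5 fibroblast markers summed to 184.8 to 250.3 CPM in both ENZ-resistant sublines and to 7.62 to 25.4 CPM in the others. COL1A2 was at 0 throughout and DCN under 1 CPM. In VCaP-CT-BR-ER, COL1A1 and PDGFRB were under 1 CPM as well, so LUM made up nearly all of the sum. In VCaP-CT-ER, COL1A1 was under 1 CPM, which left LUM and PDGFRB. The share of mitochondrial counts was 7.18% to 9.56%. The part of these differences in the results was not tested.

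NRF2 is a leucine zipper transcription factor that controls the response of cells to oxidants and electrophiles. In resting cells KEAP1 holds NRF2 in the cytoplasm and presents it to a CUL3 ubiquitin ligase for degradation, and modification of KEAP1 cysteines lets NRF2 reach the nucleus. There it pairs with a small MAF protein and binds the antioxidant response element (ARE), which BACH1 can occupy as a repressor. Because NRF2 is regulated mainly as a protein, its mRNA level is not a measure of its activity. Its targets make glutathione (SLC7A11, GCLC, GCLM), renew thioredoxin and peroxiredoxins (TXNRD1, SRXN1), reduce quinones (NQO1) and break down haem (HMOX1). Several of them also respond to other factors: SLC7A11, for example, is a known target of ATF4, the transcription factor of amino acid stress.

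The counted genes lie on GRCh38 at chr2:177227595-177392697 (NFE2L2), chr19:10486120-10503741 (KEAP1), chr16:69706996-69726951 (NQO1), chr6:53497341-53616970 (GCLC), chr1:93885205-93909456 (GCLM), chr4:138164097-138242349 (SLC7A11), chr12:104215779-104350305 (TXNRD1), chr20:646615-653370 (SRXN1) and chr22:35380361-35394214 (HMOX1). TXNRD1 and HMOX1 are on the plus strand and the other 7 on the minus strand. The promoters were searched for the ARE core TGACNNNGC on both strands, from 1000 bases before each RefSeq start and in the window from 250 bases before to 50 after it, all on hg38. Among 27305 genes, 16.1% held the core in the 300-base window and 35.5% in the 1000 bases before the start. Of the 9 genes, 7 were in the promoter table, and 5 of these held at least 1 core, 3 of them in the 300-base window. NFE2L2 and SRXN1 had no match of these letters in the searched bases, and SLC7A11 and HMOX1 were not searched.

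The matches are shown because the ARE is the sequence that NRF2 is known to bind. Each line gives the genome sequence 5′ to 3′ with the core in capitals and 10 bases on either side. A match is a description and not a bound site.
KEAP1, 54 bases before the start, chr19:10502807-10502835, minus strand: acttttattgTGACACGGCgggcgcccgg
KEAP1, 31 bases before the start, chr19:10502784-10502812, plus strand: caggtcaccaTGACTAAGCagagccgggc
NQO1, 455 bases before the start, chr16:69726997-69727025, minus strand: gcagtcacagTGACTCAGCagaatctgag
GCLC, 870 bases before the start, chr6:53545953-53545981, plus strand: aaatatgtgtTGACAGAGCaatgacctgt
GCLM, 34 bases before the start, chr1:93909446-93909474, plus strand: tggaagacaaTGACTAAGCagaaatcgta
TXNRD1, 99 bases before a start, chr12:104215670-104215698, plus strand: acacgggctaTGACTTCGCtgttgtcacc
TXNRD1, 8 bases before a start, chr12:104215761-104215789, minus strand: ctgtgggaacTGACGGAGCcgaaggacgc
TXNRD1, 102 bases before a further start, chr12:104286920-104286948, minus strand: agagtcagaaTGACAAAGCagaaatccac
The site of NQO1 is the only one of these 8 whose core overlaps the AP-1 motif TGANTCA.

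NFE2L2 mRNA was highest in VCaP-T and fell after androgen deprivation. Its level was 97.6, 101.8 and 97.7 CPM in VCaP-T, 41.3, 37.0 and 42.6 CPM in VCaP-CT, 44.6, 43.8 and 48.5 CPM in VCaP-CT-ER, 49.3, 44.7 and 47.7 CPM in VCaP-CT-BR, and 36.6, 38.6 and 38.2 CPM in VCaP-CT-BR-ER. The VCaP-T libraries stood far above all others, and those of the 4 deprived sublines lay close together. In VCaP-CT the level was 2.46 times lower than in VCaP-T (log2 fold change −1.30 ± 0.06 SE, edgeR adjusted p = 6.09e-14). The small rises from VCaP-CT to VCaP-CT-ER (log2 0.18 ± 0.06, adjusted p = 0.0139) and to VCaP-CT-BR (0.23 ± 0.06, adjusted p = 0.00319) passed the test, as did the fall under ENZ in the bicalutamide branch (−0.32 ± 0.06, adjusted p = 0.000192). The first of these was lost without VCaP-CT replicate 2 (adjusted p = 0.0694) or VCaP-CT-ER replicate 3 (0.0504). In the order of the means, VCaP-CT-BR (47.2 CPM) and VCaP-CT-ER (45.7 CPM) did not differ beyond their spread, and neither did VCaP-CT (40.3 CPM) and VCaP-CT-BR-ER (37.8 CPM). NFE2L2 shares 1054 of its 5979 counted bases with ENSG00000213963 on the same strand, where reads were assigned to neither gene.

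KEAP1, the adaptor that targets NRF2 for degradation, had the most even level of the 9 genes. It was 82.3, 74.5 and 81.6 CPM in VCaP-T, 88.5, 98.8 and 79.1 CPM in VCaP-CT, 85.0, 84.6 and 77.4 CPM in VCaP-CT-ER, 69.8, 82.5 and 78.4 CPM in VCaP-CT-BR, and 71.6, 77.5 and 71.5 CPM in VCaP-CT-BR-ER. Neighboring sublines had overlapping libraries, and no neighbours in the order of the means differed beyond their spread. The highest subline mean was 1.21 times the lowest. KEAP1 was lower in VCaP-CT-BR than in VCaP-CT (−0.21 ± 0.07, adjusted p = 0.0227), but this call was lost without VCaP-CT replicate 1 or 2 or VCaP-CT-BR replicate 1, and in a fit of those sublines alone, with an adjusted p of up to 0.245. The largest difference between any pair of sublines from VCaP-CT onward was that of VCaP-CT-BR-ER below VCaP-CT (−0.27 ± 0.07, adjusted p = 0.00384), where the libraries did not overlap.

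**Figure D1:**
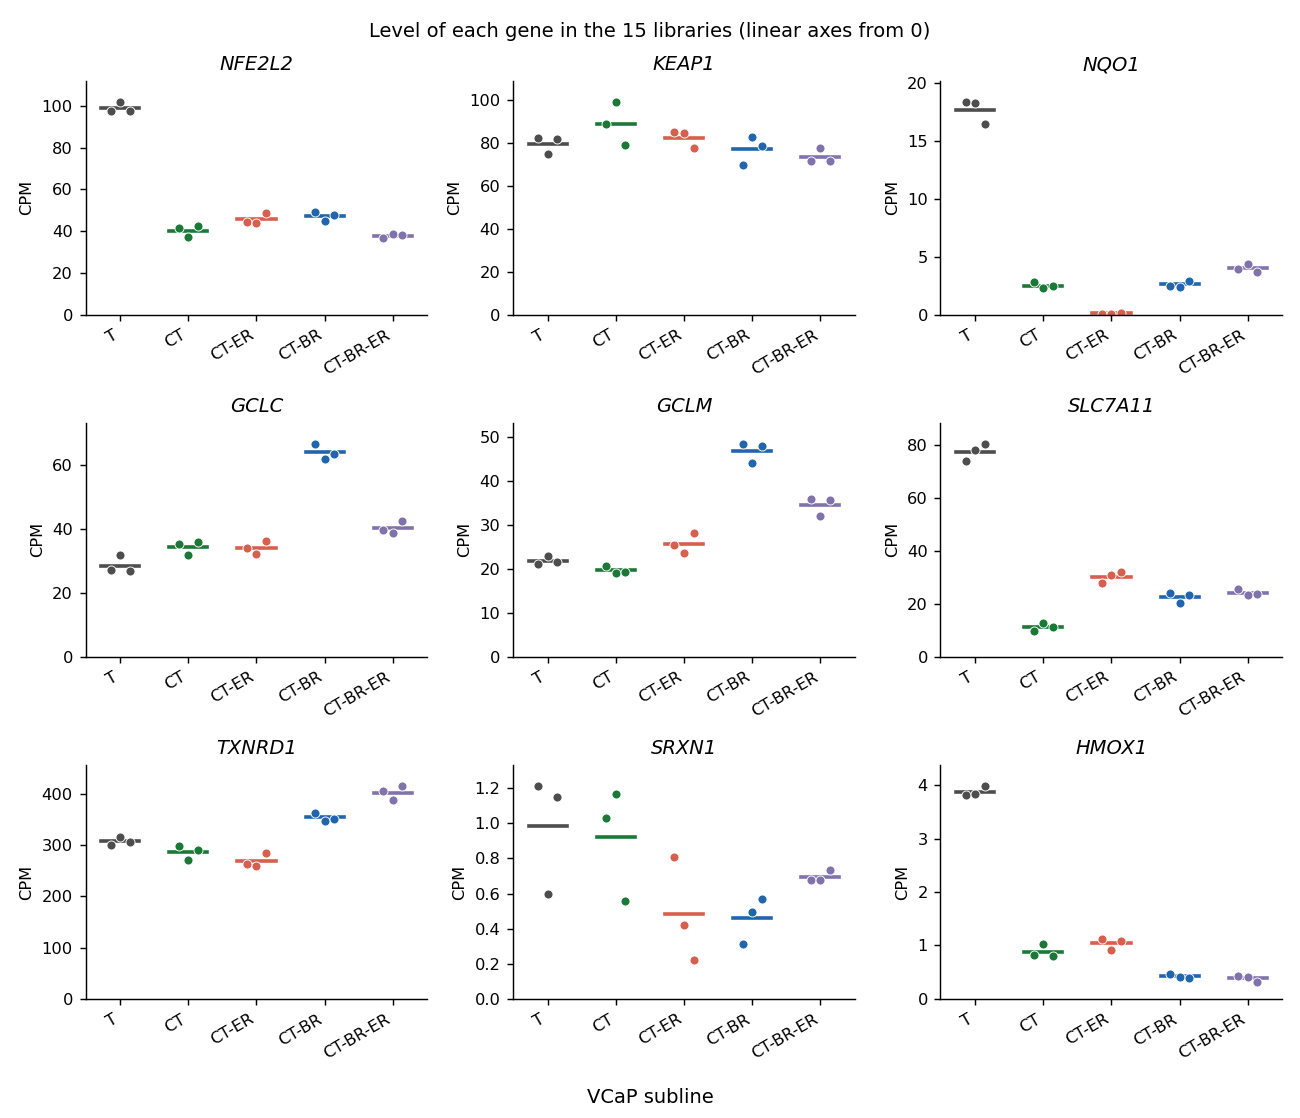
Level of each of the 9 genes in CPM, on linear axes from 0, in the 15 libraries (points, 3 per subline; bars, means). NFE2L2, NQO1, SLC7A11 and HMOX1 were highest in VCaP-T, GCLC and GCLM in VCaP-CT-BR, and TXNRD1 in VCaP-CT-BR-ER.

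NQO1, the quinone reductase often used as a readout of NRF2, had by far the widest range of the 9 genes. The libraries of VCaP-T held 667, 670 and 699 counts, those of VCaP-CT 93, 80 and 87, those of VCaP-CT-ER 4, 3 and 6, those of VCaP-CT-BR 96, 92 and 117, and those of VCaP-CT-BR-ER 163, 161 and 140. These counts are 18.3, 18.2 and 16.4 CPM in VCaP-T and 2.81, 2.28 and 2.43 CPM in VCaP-CT, against 0.0828, 0.0626 and 0.149 CPM in VCaP-CT-ER. They are 2.49, 2.41 and 2.90 CPM in VCaP-CT-BR and 3.96, 4.36 and 3.67 CPM in VCaP-CT-BR-ER. VCaP-CT and VCaP-CT-BR overlapped, and every other pair of neighbours in the order was apart. VCaP-CT-ER was at the level of a few counts per library.

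Summed over 3 libraries, the NQO1 level in VCaP-T was 7.11 times that in VCaP-CT (95% counting interval 6.24 to 8.12) and 179.7 times that in VCaP-CT-ER (104.9 to 338.1). The level in VCaP-CT was 25.3 times that in VCaP-CT-ER (14.5 to 48.1), with 260 against 13 counts. These are values that chose the gene. The same drug applied to the bicalutamide-resistant cells went with a higher level, at 1.53 times that of VCaP-CT-BR (1.32 to 1.77). VCaP-CT-BR stood at 1.05 times VCaP-CT (0.891 to 1.25). The intervals are exact and cover counting error only. In bulk RNA, fewer cells with NQO1 transcripts and less NQO1 RNA per cell cannot be told apart. NQO1 shares 575 of 3254 counted bases with ENSG00000261602 on the opposite strand, where reads were assigned to neither gene. ENSG00000261602 itself had no count in any library.

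**Figure D2:**
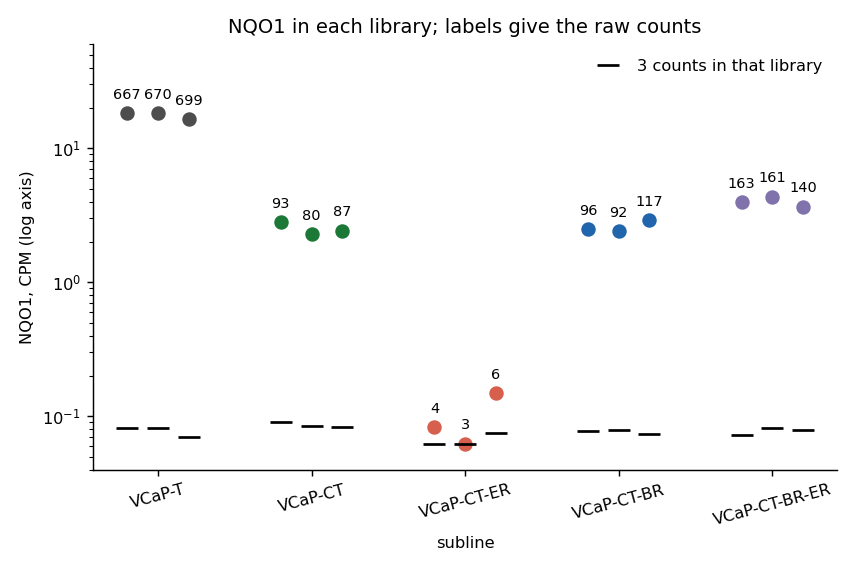
NQO1 in each library in CPM on a log axis, with the raw count above each point and a black bar where 3 counts in that library would lie. The VCaP-CT-ER libraries hold 4, 3 and 6 counts and sit at or just above this level, whereas the other 12 libraries hold 80 to 699 counts.

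Among the glutathione genes the transporter fell strongly after androgen deprivation, whereas the values of both synthesis enzyme subunits moved little (log2 0.27 for GCLC and −0.15 for GCLM). SLC7A11, the light chain of the cystine importer that supplies cysteine for glutathione, was at 73.9, 78.2 and 80.3 CPM in VCaP-T and at 9.66, 12.9 and 11.1 CPM in VCaP-CT. It stood at 28, 30.8 and 31.9 CPM in VCaP-CT-ER, 24.1, 20.5 and 23.5 CPM in VCaP-CT-BR, and 25.6, 23.4 and 23.8 CPM in VCaP-CT-BR-ER. VCaP-T was highest and VCaP-CT lowest, with the 3 antagonist-resistant sublines in between. SLC7A11 fell 6.89-fold in VCaP-CT (log2 −2.78 ± 0.09, adjusted p = 8.45e-17), then rose 2.69-fold with ENZ resistance (1.43 ± 0.09, adjusted p = 8.85e-12) and 2.02-fold in VCaP-CT-BR (1.01 ± 0.09, adjusted p = 6.62e-09). Both rises left it below VCaP-T, by log2 −1.36 ± 0.08 and −1.77 ± 0.08. Under ENZ in the bicalutamide branch it stayed within overlapping libraries (log2 0.10 ± 0.08, adjusted p = 0.379). SLC7A11 shares 865 of its 9645 counted bases with SLC7A11-AS1 on the opposite strand, where reads were assigned to neither gene.

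GCLC, the catalytic subunit of glutamate-cysteine ligase and the rate-limiting enzyme of glutathione synthesis, was highest in VCaP-CT-BR. Its level was 27.1, 31.7 and 26.9 CPM in VCaP-T, 35.4, 32.0 and 36.0 CPM in VCaP-CT, 34.0, 32.2 and 36.3 CPM in VCaP-CT-ER, 66.5, 62.0 and 63.5 CPM in VCaP-CT-BR, and 39.8, 38.9 and 42.6 CPM in VCaP-CT-BR-ER. VCaP-CT and VCaP-CT-ER overlapped, and the VCaP-CT-BR libraries lay above all others. GCLC rose in VCaP-CT against VCaP-T (0.27 ± 0.07, adjusted p = 0.00207) and by 1.86-fold in VCaP-CT-BR against VCaP-CT (0.89 ± 0.07, adjusted p = 9.61e-10), and fell again in VCaP-CT-BR-ER (−0.66 ± 0.07, adjusted p = 8.51e-08). Its change from VCaP-CT to VCaP-CT-ER was −0.01 ± 0.07 (adjusted p = 0.884). GCLC shares 529 of its 8646 counted bases with ENSG00000231683 on the same strand, where reads were assigned to neither gene.

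GCLM, the modifier subunit of the same ligase, had 21.0, 22.9 and 21.6 CPM in VCaP-T and 20.7, 19.0 and 19.3 CPM in VCaP-CT. It had 25.4, 23.6 and 28.1 CPM in VCaP-CT-ER, 48.3, 44.1 and 48.0 CPM in VCaP-CT-BR, and 35.9, 32.0 and 35.6 CPM in VCaP-CT-BR-ER. Libraries of the 3 antagonist-resistant sublines did not overlap with one another or with VCaP-CT. GCLM rose 2.38-fold in VCaP-CT-BR (1.25 ± 0.07, adjusted p = 8.79e-12) and 1.31-fold in VCaP-CT-ER (0.38 ± 0.07, adjusted p = 8.93e-05), and fell 1.36-fold in the further step to VCaP-CT-BR-ER (−0.44 ± 0.07, adjusted p = 1.98e-05). Against VCaP-T, its value in VCaP-CT (−0.15 ± 0.07, adjusted p = 0.0761) missed the threshold.

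TXNRD1, the cytosolic thioredoxin reductase, was the most abundant of the 9 genes per length, at 41.0 to 59.7 FPKM (fragments per kilobase of counted exon, scaled to library size) as subline means, followed by KEAP1 at 19.5 to 23.3. Its level was at 299.6, 317.0 and 305.7 CPM in VCaP-T, 298.5, 270.5 and 290.1 CPM in VCaP-CT, 263.0, 258.7 and 285.4 CPM in VCaP-CT-ER, 363.0, 348.0 and 352.2 CPM in VCaP-CT-BR, and 405.3, 387.4 and 414.7 CPM in VCaP-CT-BR-ER. Both sublines that had passed through bicalutamide stood above the other 3 without overlap. TXNRD1 rose by 1.24-fold in VCaP-CT-BR against VCaP-CT (0.31 ± 0.05, adjusted p = 2.33e-05) and by a further 1.14-fold in VCaP-CT-BR-ER (0.18 ± 0.05, adjusted p = 0.00459). The changes from VCaP-T to VCaP-CT (−0.10 ± 0.05, adjusted p = 0.0744) and from VCaP-CT to VCaP-CT-ER (−0.09 ± 0.05, adjusted p = 0.12) missed the threshold.

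SRXN1, sulfiredoxin, which repairs overoxidized peroxiredoxins, was counted at a level too low for firm statements. The libraries held 44, 22 and 49 counts in VCaP-T, 34, 41 and 20 counts in VCaP-CT, 39, 20 and 9 counts in VCaP-CT-ER, 12, 19 and 23 counts in VCaP-CT-BR, and 28, 25 and 28 counts in VCaP-CT-BR-ER. Neighbours in the order of the means overlapped and did not differ beyond their spread. It was called lower than in VCaP-CT both under ENZ (VCaP-CT-ER, −0.88 ± 0.36, adjusted p = 0.0414) and under bicalutamide (VCaP-CT-BR, −0.98 ± 0.38, adjusted p = 0.0342), with overlapping libraries. The first call was lost in 9 of 22 alternatives, with an adjusted p of up to 0.188, among them those without VCaP-CT replicate 1 or 2, VCaP-CT-ER replicate 2 or 3, or any of the VCaP-CT-BR-ER libraries, and the value without VCaP-CT-ER replicate 3 was −0.56. The second was lost in 4 of 22, up to 0.163, without VCaP-CT replicate 1 or 2 or VCaP-CT-BR replicate 1 or 2. Of the 2698 counted bases of SRXN1, 2292 also belong to ENSG00000270299 on the same strand, and reads there were assigned to neither, so the counts cover a small part of the gene.

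HMOX1, heme oxygenase 1, fell in VCaP-CT and fell again in the bicalutamide branch. It had 139, 141 and 169 counts in VCaP-T, 27, 36 and 29 counts in VCaP-CT, 54, 44 and 44 counts in VCaP-CT-ER, 18, 16 and 16 counts in VCaP-CT-BR, and 18, 15 and 12 counts in VCaP-CT-BR-ER. In mean CPM these were 3.88, 0.883, 1.04, 0.427 and 0.386. VCaP-T was highest and the 2 bicalutamide sublines were lowest, each without overlap with the rest. HMOX1 fell 4.38-fold from VCaP-T to VCaP-CT (−2.13 ± 0.15, adjusted p = 7.61e-11) and 2.06-fold from VCaP-CT to VCaP-CT-BR (−1.05 ± 0.22, adjusted p = 0.000347). Its values from VCaP-CT to VCaP-CT-ER (0.24 ± 0.18, adjusted p = 0.285) and in the last step, to VCaP-CT-BR-ER (−0.14 ± 0.25, adjusted p = 0.738) missed the threshold.

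VCaP-CT, derived by long androgen deprivation, was compared with VCaP-T. Of the 8 genes tested, NFE2L2, SLC7A11 and HMOX1 fell and GCLC rose, while KEAP1, GCLM, TXNRD1 and SRXN1 were not called. In this comparison 65.3% of all genes tested were called, 33.1% higher and 32.2% lower, and 66.6% had libraries that did not overlap, so 4 of 8 is not more than the background. The median log2 fold change over the 8 genes was −0.13, against 0.03 over all genes. With DESeq2, GCLM and TXNRD1 were also called lower, by −0.17 and −0.13 on the log2 scale.

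Among 83 tested genes of 8 related lists (90 listed, without the members), 26 rose and 39 fell in VCaP-CT. These lists, that of ATF4 targets among them, were chosen with earlier results of these data known. The list of ATF4 targets holds ATF4 itself and 9 of its targets, and all 10 genes fell, with a median of −2.59: SLC7A5, an importer of large amino acids, went from 55.2 ± 5.76 (SD) to 2.61 ± 0.703 CPM (−4.40 ± 0.15, adjusted p = 2.59e-16) and VLDLR from 47.5 ± 0.416 to 10.7 ± 0.657 CPM (−2.14 ± 0.06, adjusted p = 3.12e-17). Of 14 thioredoxin and peroxiredoxin genes 10 rose and 3 fell, among the latter the sestrin SESN2 (−3.15 ± 0.09, adjusted p = 1.38e-17), and TXNRD2, the mitochondrial thioredoxin reductase, rose from 0.768 ± 0.117 to 3.80 ± 0.332 CPM (2.31 ± 0.17, adjusted p = 9.88e-11). Of the 6 genes for NADPH supply 4 rose and IDH1 fell (−1.22 ± 0.06, adjusted p = 4.51e-14). ME1, among the 4, had a mean of 0.508 CPM in VCaP-CT and 0.0599 CPM or less in every other subline. It passed the filter on low counts only through VCaP-CT, so its changes against VCaP-CT were favoured by the filter.

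Of 10 NRF2 regulators, 4 fell and 2 rose. NFE2L1, a relative of NRF2, went from 401.0 ± 2.5 to 185.7 ± 9.66 CPM (−1.11 ± 0.04, adjusted p = 4.35e-15), and SQSTM1, the autophagy receptor that can sequester KEAP1, rose from 78.7 ± 1.51 to 97.2 ± 4.57 CPM (0.31 ± 0.06, adjusted p = 7.56e-05). In the glutathione list 3 of 16 rose and 6 fell, with the glutathione peroxidase GPX2 falling from 17.1 ± 0.470 to 1.90 ± 0.213 CPM (−3.17 ± 0.12, adjusted p = 1.22e-15) and GSTA4, a glutathione transferase for lipid aldehydes, rising (0.66 ± 0.08, adjusted p = 4.16e-07). In detoxification 4 of 17 rose and 9 fell, with the conjugate exporter ABCC3 falling most (−4.14 ± 0.13, adjusted p = 6.87e-17) and ABCC5 rising (1.24 ± 0.05, adjusted p = 1.08e-14). Of 7 haem and iron genes 2 rose and 4 fell, with the ferritin heavy chain FTH1 at −1.41 ± 0.09 (adjusted p = 6.7e-12), and of 3 superoxide and peroxide genes SOD1 rose (0.61 ± 0.05, adjusted p = 7.48e-10) and AIFM2 (−1.12 ± 0.11, adjusted p = 8.97e-09) and catalase, CAT (−0.60 ± 0.05, adjusted p = 2.43e-09), fell.

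The step from VCaP-CT to VCaP-CT-ER shows the pathway after selection with ENZ. SLC7A11, GCLM and NFE2L2 rose, SRXN1 was called lower, and KEAP1, GCLC, TXNRD1 and HMOX1 were not called, while NQO1 was at 13 counts in 3 libraries. Of all genes tested 60.9% were called, 29.6% higher and 31.2% lower, and 63.3% did not overlap, so that 4 of 8 members called is not above the background, and the count was 2 without VCaP-CT-ER replicate 3. The median of the 8 members was 0.08, against −0.02 over all genes. The luminal marker sum was higher in VCaP-CT-ER than in VCaP-CT, as given above, and its part in these changes was not tested.

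Of the 83 pathway genes, 35 rose and 32 fell. Of the 6 NADPH genes 5 fell, including transketolase (TKT, −0.64 ± 0.06, adjusted p = 7.15e-09), and IDH1 rose (0.59 ± 0.05, adjusted p = 6.72e-09). The 5 include ME1, which passed the filter only through VCaP-CT. In the glutathione list 9 of 16 rose and 5 fell. GPX3, a secreted glutathione peroxidase, went from 64.7 ± 1.69 to 273.4 ± 3.35 CPM (2.08 ± 0.06, adjusted p = 9.62e-17), and GSTK1 went the other way (−0.69 ± 0.06, adjusted p = 5.91e-10). In detoxification 10 of 17 rose and 5 fell. AKR1C3, which reduces steroids and carbonyls, rose from 3.26 ± 0.243 to 17.2 ± 1.6 CPM (2.40 ± 0.11, adjusted p = 5.64e-14), and the carbonyl reductase CBR1 fell from 25.7 ± 0.507 to 15.6 ± 0.567 CPM (−0.72 ± 0.06, adjusted p = 6.56e-10).

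Of the NRF2 regulators 6 of 10 fell and 2 rose in VCaP-CT-ER. MAFK, a small MAF partner of NRF2, went from 11.2 ± 2.05 to 6.32 ± 1.12 CPM (−0.82 ± 0.14, adjusted p = 5.27e-05), and the kinase GSK3B, which marks NRF2 for KEAP1-independent degradation, rose (0.32 ± 0.05, adjusted p = 3.3e-05). Among 14 thioredoxin genes 4 rose and 5 fell, with PRDX4 of the endoplasmic reticulum up (0.77 ± 0.05, adjusted p = 8.95e-11) and PRDX5 down from 618.0 ± 3.28 to 228.3 ± 10.3 CPM (−1.44 ± 0.06, adjusted p = 3.91e-15). Of the 10 genes of the ATF4 list 6 rose and 2 fell, and the median was 0.26: VLDLR reached 102.4 ± 4.30 CPM (3.25 ± 0.06, adjusted p = 4.56e-20), whereas SLC7A5 fell to 0.911 ± 0.299 CPM (−1.50 ± 0.22, adjusted p = 6.32e-06). The transferrin receptor TFRC rose (0.82 ± 0.06, adjusted p = 3.72e-11) and the ferritin light chain FTL fell (−0.83 ± 0.06, adjusted p = 2.39e-10), with 2 of 7 haem and iron genes up and 3 down. Of the 3 superoxide and peroxide genes AIFM2 rose (0.60 ± 0.11, adjusted p = 6.5e-05) and SOD1 fell (−0.28 ± 0.05, adjusted p = 5.77e-05).

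**Figure D3:**
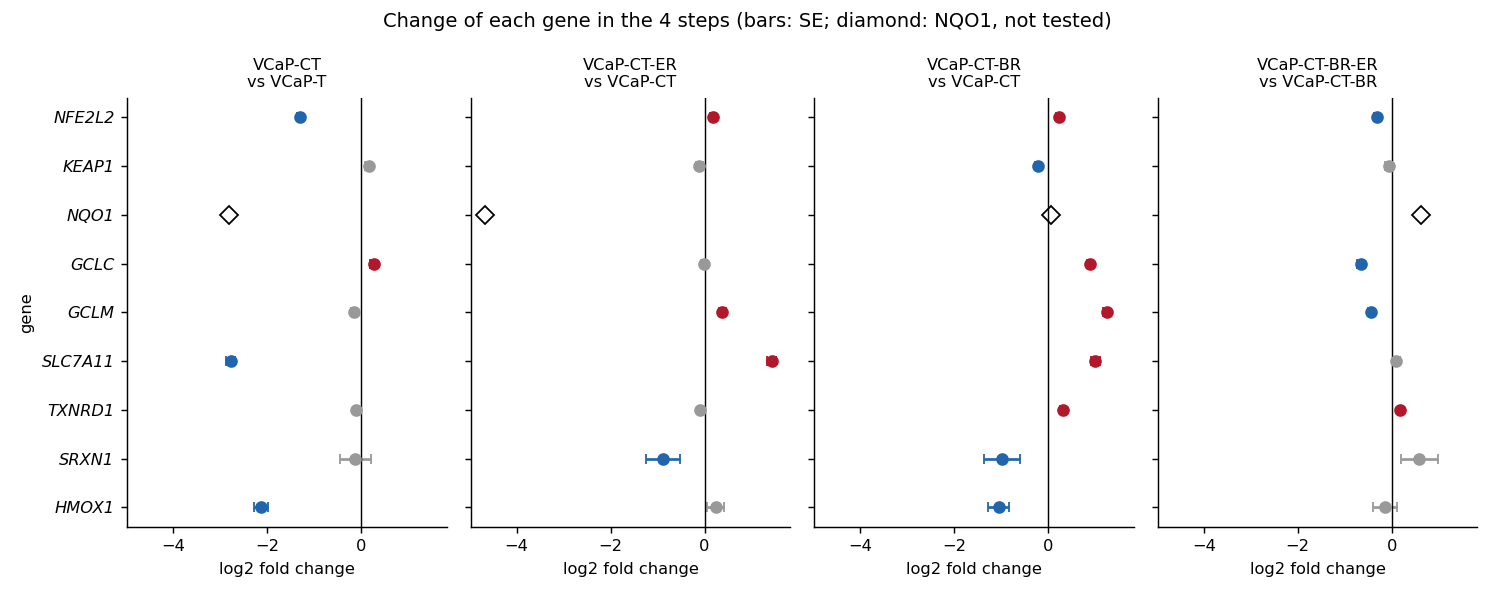
Log2 fold change of each gene in the 4 steps, with SE bars. Red and blue points are genes called higher and lower by edgeR, gray points were not called, and the open diamond is NQO1, which was not tested. NQO1 lies at −4.67 in the step to VCaP-CT-ER and at 0.62 in the step to VCaP-CT-BR-ER.

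In the step from VCaP-CT to VCaP-CT-BR all 8 tested members were called. GCLM, SLC7A11, GCLC, TXNRD1 and NFE2L2 rose, and HMOX1, SRXN1 and KEAP1 were called lower, against 53.2% of all genes called, 26.1% higher and 27% lower, and 57.7% without overlap. The count was 6 to 8 with each library left out in turn, and 6 without VCaP-CT replicate 1 or 2 or VCaP-CT-BR replicate 1. The median was 0.27 over the 8 members and −0.02 over all genes. NQO1 did not follow GCLM and GCLC: its libraries overlapped with those of VCaP-CT.

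Of the 83 pathway genes 28 rose and 32 fell in VCaP-CT-BR. None of the 6 NADPH genes rose and 4 fell, with TKT at −0.73 ± 0.06 (edgeR adjusted p = 2.66e-09). ME1, which passed the filter only through VCaP-CT, is among the 4. Detoxification genes rose in 8 of 17 cases and fell in 2, one of which was ABCC3, from 1.12 ± 0.167 to 0.189 ± 0.0781 CPM (−2.55 ± 0.27, adjusted p = 8.41e-08). The microsomal glutathione transferase MGST1 rose from 59.7 ± 3.95 to 121.6 ± 4.37 CPM (1.03 ± 0.06, adjusted p = 9e-12), within a glutathione list of 5 rises and 4 falls in 16. TXNIP, the thioredoxin inhibitor, rose from 136.1 ± 8.10 to 217.1 ± 15 CPM (0.67 ± 0.06, adjusted p = 9.05e-09), within 7 rises and 5 falls in 14. In the other lists 3 of 10 NRF2 regulators rose and 5 fell, with CUL3, the scaffold of the ligase that degrades NRF2, up (0.46 ± 0.06, adjusted p = 2.17e-06), 1 of 7 haem and iron genes rose and 5 fell, 2 of 3 superoxide and peroxide genes rose, and 2 of 10 genes of the ATF4 list rose and 7 fell (median −0.38).

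When ENZ was applied to VCaP-CT-BR, giving VCaP-CT-BR-ER, GCLC, GCLM and NFE2L2 fell and TXNRD1 rose, while KEAP1, SLC7A11, SRXN1 and HMOX1 were not called. The count of 4 of 8 stands beside 42.9% of all genes called, 21.2% higher and 21.7% lower, and 53.1% without overlap, and is near that share. The median was −0.10 over the members and 0.00 over all genes. The level of GCLC in VCaP-CT-BR-ER was still above VCaP-CT (0.23 ± 0.07, adjusted p = 0.00849), and that of GCLM was too (0.81 ± 0.07, adjusted p = 4.32e-09).

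Of the pathway genes 29 rose and 20 fell in this step. Of the 10 genes of the ATF4 list 8 rose, with a median of 0.53, led by VLDLR (1.82 ± 0.06, adjusted p = 3.32e-15), from 9.25 ± 0.486 to 32.7 ± 1.55 CPM. In iron metabolism 5 of 7 genes rose and FTL fell (−0.28 ± 0.06, adjusted p = 0.001), with TFRC up from 280.4 ± 8.40 to 593.5 ± 28.5 CPM (1.08 ± 0.06, adjusted p = 1.49e-12). Of the NRF2 regulators 4 of 10 fell, with SQSTM1 going from 77.0 ± 5.98 to 48.3 ± 0.831 CPM (−0.67 ± 0.06, adjusted p = 6.01e-09). In the remaining lists 3 of 16 glutathione genes rose and 7 fell, 4 of 14 thioredoxin genes rose and 4 fell, 6 of 17 detoxification genes rose and 4 fell, 2 of 3 superoxide and peroxide genes rose, and 1 of 6 NADPH genes, IDH1, rose (0.40 ± 0.05, adjusted p = 4.93e-06). AKR1C3 fell from 4.66 ± 0.508 to 1.89 ± 0.321 CPM (−1.31 ± 0.13, adjusted p = 6.24e-08).

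**Figure D4:**
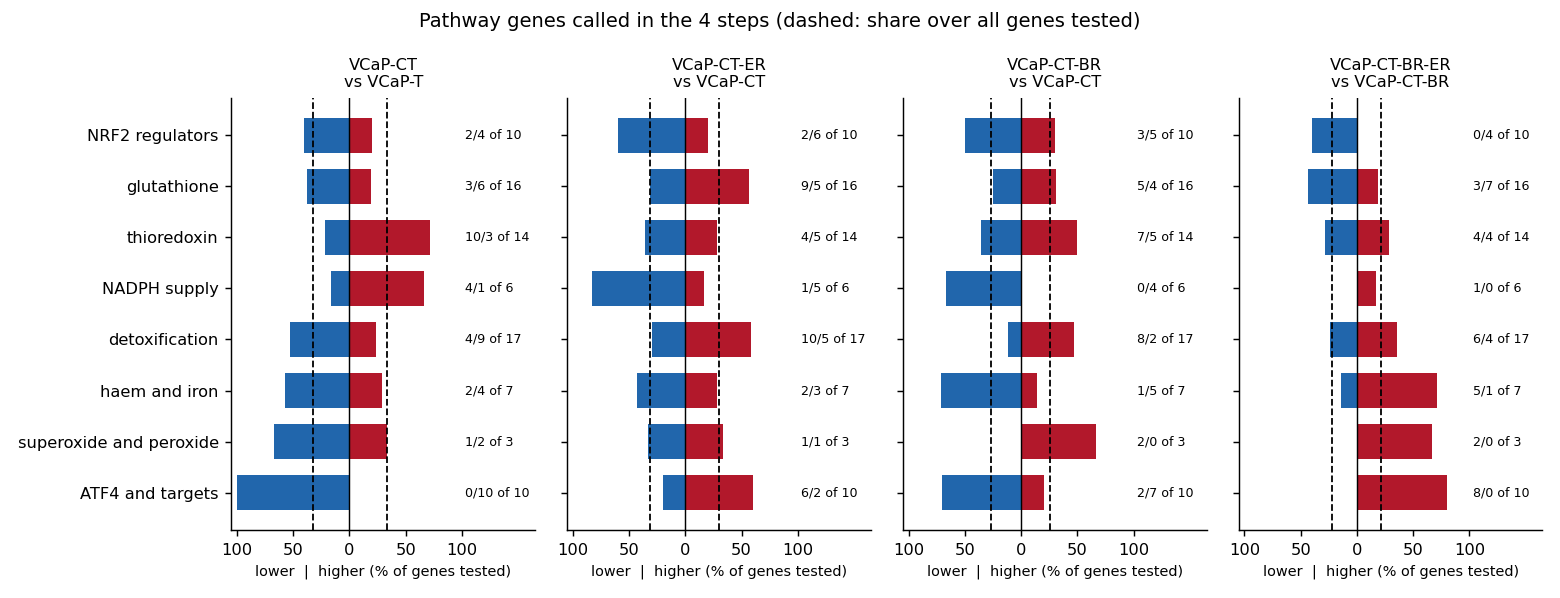
Share of the tested genes of each of the 8 lists called higher (red, right) and lower (blue, left) by edgeR in each step, with the counts higher/lower of tested beside each bar and dashed lines at the share over all genes. All 10 genes of the ATF4 list (ATF4 and 9 targets) fell in VCaP-CT and 5 of 6 NADPH genes fell in VCaP-CT-ER. Among these 5 is ME1, which passed the filter only through VCaP-CT. The lists were chosen with earlier results of these data known.

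The first 3 steps share libraries of VCaP-CT, and the last 2 share those of VCaP-CT-BR, so their values are set side by side and not correlated. Some of the named pathway genes overlap others. FTH1 shares 1267 of 2030 counted bases with BEST1, SQSTM1 shares 1582 of 7654 with MRNIP and MAFK 809 of 4458 with TMEM184A, each on the opposite strand, and reads in the shared bases were not assigned. AKR1C3, FTH1 and FTL also have near-identical paralogs or processed pseudogenes, and reads with several alignments were not counted, so their levels are uncertain.

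Among the other 6 pairs of sublines, which set the order of the levels, edgeR called 69% of all genes between VCaP-CT-ER and VCaP-T, 71.2% between VCaP-CT-BR and VCaP-T, 70.2% between VCaP-CT-BR-ER and VCaP-T, 55.9% between VCaP-CT-BR and VCaP-CT-ER, 45.9% between the ENZ-resistant sublines and, for VCaP-CT-BR-ER against VCaP-CT, 52.5%.

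The steps under ENZ were then compared between both starting points, as the difference between the step to VCaP-CT-ER and the step to VCaP-CT-BR-ER. Each step is 1 derivation, and the labels name ENZ for VCaP-CT-BR as well. Of the 8 members 6 were called, beside 49.7% of all genes (24.5% higher, 25.2% lower). SLC7A11 rose more from VCaP-CT (1.43) than from VCaP-CT-BR (0.10), with a difference of 1.33 ± 0.12 (adjusted p = 1.12e-08). GCLM rose in one step (0.38) and fell in the other (−0.44), with a difference of 0.82 ± 0.10 (adjusted p = 5.97e-07), and NFE2L2 did likewise (0.50 ± 0.09, adjusted p = 5.23e-05). GCLC was level in one (−0.01) and fell in the other (−0.66), with a difference of 0.65 ± 0.10 (adjusted p = 1.14e-05). TXNRD1 had a small difference in the opposite direction (−0.27 ± 0.07, adjusted p = 0.00261). The call of SRXN1 (−1.48 ± 0.53, adjusted p = 0.0264) was lost in 6 of 22 alternatives, with an adjusted p of up to 0.08, without VCaP-CT replicate 1 or 2, VCaP-CT-ER replicate 2 or 3, VCaP-CT-BR replicate 1 or VCaP-CT-BR-ER replicate 3. NQO1 was lower in all 3 libraries of VCaP-CT-ER and higher in all 3 of VCaP-CT-BR-ER, each without overlap with its starting subline, and the difference was not tested. Of the pathway genes 27 had a higher and 30 a lower value from VCaP-CT, with AKR1C3 (3.71 ± 0.17, adjusted p = 2.56e-13) and GPX3 (2.41 ± 0.09, adjusted p = 1.05e-14) among the former and SLC7A5 (−3.16 ± 0.31, adjusted p = 3.02e-08) among the latter. AKR1C3, GPX3 and SLC7A5 had been named for their changes in these steps, so large differences were favoured by the choice.

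To see whether the genes beside NQO1 moved with it, the 35 tested genes within 1 Mb were read in the step to VCaP-CT-ER. Of these 7 rose and 12 fell, with a median of −0.12 and a range from −1.14 to 1.29, against −4.67 for NQO1. The level of NQO1 in VCaP-CT-ER chose the gene, so its distance from the neighbours was favoured by the choice. The nearest tested gene, NFAT5, 2.3 kb past the 3′ end of NQO1, had a log2 fold change of 0.06, and NOB1, 14.9 kb before its 5′ end, one of −0.86. These counts stand beside 33.1% of all genes higher and 32.2% lower in VCaP-CT against VCaP-T, 29.6% and 31.2% in the step to VCaP-CT-ER, and 26.1% and 27% in the step to VCaP-CT-BR. The other 8 members had 5 to 65 tested neighbours, which were read in each step where the member changed by at least 2-fold and passed the test. In VCaP-CT against VCaP-T, 1 of the 11 genes near NFE2L2 rose and 7 fell (median −0.66), beside −1.30 for NFE2L2. In the same step 3 of the 5 genes near SLC7A11 rose and 1 fell (median 0.61), beside −2.78 for SLC7A11, and 7 of the 15 genes near HMOX1 rose and 4 fell (median 0.25), beside −2.13 for HMOX1. The medians thus had the sign of the member for NFE2L2 and the opposite sign for SLC7A11 and HMOX1. Some of these neighbours overlap the span of the member: AGPS (−1.91), ENSG00000213963 (−3.11) and ENSG00000280374.1 (−2.52) for NFE2L2, and SLC7A11-AS1 (−2.87) for SLC7A11. In VCaP-CT-ER 1 of the genes near SLC7A11 rose and 2 fell (median 0.00), beside 1.43. In VCaP-CT-BR 2 of them rose and 1 fell (median 0.34), beside 1.01, 8 of the 20 genes near GCLM rose and 10 fell (median −0.21), beside 1.25, and none of the genes near HMOX1 rose and 11 fell (median −0.83), beside −1.05. The genes near HMOX1 also had 11 falls and no rise in VCaP-CT-ER (median −0.65), where HMOX1 was at 0.24 and not called.

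**Figure D5:**
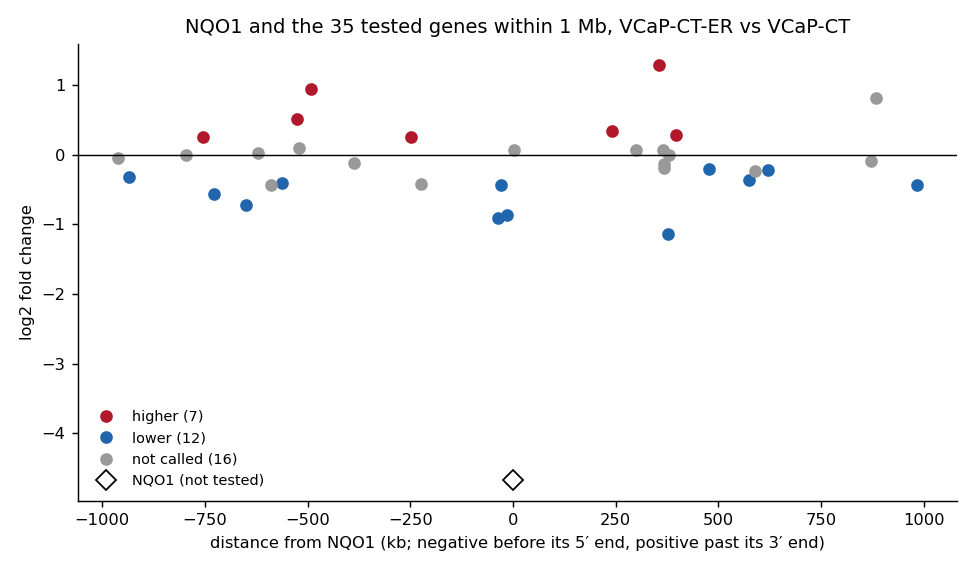
Log2 fold change from VCaP-CT to VCaP-CT-ER of NQO1 (open diamond, not tested) and of the 35 tested genes within 1 Mb, against their distance from NQO1 in kb, negative before its 5′ end and positive past its 3′ end. The neighbours lie between −1.14 and 1.29 and NQO1 lies at −4.67. The level of NQO1 in VCaP-CT-ER chose the gene.

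Likeness was measured as the root mean square difference between the 5 subline means of log2 CPM, each gene centered on its own mean, for the 3 members whose means spanned at least 4-fold. The span was 180.4-fold for NQO1, 10.1-fold for HMOX1 and 6.91-fold for SLC7A11, and 2.62-fold or less for the other 6. The nearest genes to SLC7A11 were DNAH8 (0.133), TTC39B (0.157) and CLGN (0.221), those to HMOX1 were ESRRG (0.137), PLEKHG6 (0.152) and ZNF703 (0.161). The genes nearest to NQO1 were farther off, with ST8SIA6-AS1 at 0.829, PIFO at 0.868 and ZDHHC4 at 0.979. The level of NQO1 in VCaP-CT-ER, at 13 summed counts, chose the gene and is near the floor. It enters this measure, so NQO1 cannot be set against SLC7A11 and HMOX1 by it. ZDHHC4, for example, had a mean of 20.3 CPM in VCaP-T, 12.5 CPM in VCaP-CT, 0.858 CPM in VCaP-CT-ER, 13.8 CPM in VCaP-CT-BR and 6.98 CPM in VCaP-CT-BR-ER. The 5 points of each gene come from the same 15 libraries, and the measure carries no test.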

How the data were processed

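Bulk RNA of 5 VCaP sublines was sequenced as read pairs. The authors aligned the reads with STAR 2.5.4b and deposited, per the file headers and the submitters' processing notes, raw fragment counts per gene from featureCounts 1.6.2 on exons of GENCODE release 28 (GRCh38), for pairs and without regard to strand. Reads that overlapped several genes or aligned several times were left uncounted under these settings, so overlapping genes and paralogs are undercounted. The counts were not normalized by the authors.

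Symbols were matched by Ensembl identifier to 57754 of 58381 genes. The members and the pathway lists were chosen with earlier results of these data known. Counts were tested with edgeR 4.0.16 in R 4.3.3 (filterByExpr at a minimum count of 10, TMM, quasi-likelihood tests of a model with 1 mean for each subline, fitted to the 15 libraries together, Benjamini-Hochberg over 19621 genes, threshold 0.05), and the biological coefficient of variation was 0.061. TMM factors lay between 0.984 and 1.029, and CPM are scaled by them. Library totals were 33665716 to 46935279 counts, which sets the floor of 3 counts. NQO1 was described by counts, with exact 95% intervals of the ratio. Tested on simulated data with 195 genes changed 2-fold between VCaP-CT-ER and VCaP-CT, the fit called 163 of them (83.6%) and 6 unchanged ones among 19039 genes. The simulation gave all other genes the same mean in every subline and used the spread fitted to the data. In the data 60.9% of genes were called in that step, so the rates of the simulation may not hold there. Named pathway genes are those that rose or fell most in each list and step. They come from genes that passed the test and averaged 1 or more in log2 CPM. CAT was named beyond this rule after its values were seen. VLDLR was also named beyond it in VCaP-CT against VCaP-T, where other genes of the ATF4 list fell more. Lists are given by counts and medians, without a set test. Promoter windows came from RefSeq on hg38, and all 35116 were identical to the genome. No pair of libraries of a subline agreed within sampling noise (chi-square per gene 3.01 to 17.6). SOD2 was not matched, and some genes of the lists are counted but their values are not reported here. Alternatives were DESeq2 1.42.0, other scalings and filters, a fit of the compared sublines alone, the replicate block, a 2-fold limit and each library left out. Python 3.11.15, pandas 2.3.3, numpy 2.4.6, scipy 1.17.1 and matplotlib 3.10.9 were used for the rest.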

Additional observations from a re-analysis of the deposited data

Results flagged for a closer look

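The step under ENZ differed between both starting sublines for 6 of the 8 tested members, beside 49.7% of all genes tested. As the log2 fold change of VCaP-CT-ER against VCaP-CT minus that of VCaP-CT-BR-ER against its own starting subline, the edgeR interaction test gave 0.50 for NFE2L2, 0.65 for GCLC, 0.82 for GCLM, 1.33 for SLC7A11, −0.27 for TXNRD1 and −1.48 for SRXN1, with adjusted p from 1.12e-08 to 0.0264. For NQO1 the value was −5.29, from −4.67 in one step and 0.62 in the other, with all 3 libraries below the starting subline in one and all 3 above it in the other. This difference was not tested, because the gene was chosen for its level in VCaP-CT-ER.

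The same test passed for the pathway genes listed below, which were named above. All but CAT had been named for a largest rise or fall in a step. Both steps of this difference were among those steps, so the choice favoured a pass. SQSTM1, GPX2, GSTK1 and ABCC5, also named above, did not pass the edgeR interaction test (adjusted p = 0.297, 0.274, 0.451 and 0.129). Among regulators the test gave −0.19 for NFE2L1, −0.74 for MAFK, 0.26 for GSK3B and 0.47 for CUL3. For glutathione genes it gave 2.41 for GPX3, 0.59 for GSTA4 and 0.53 for MGST1, and for thioredoxin genes −1.47 for TXNRD2, 0.32 for PRDX4, −0.93 for PRDX5, 0.91 for TXNIP and −0.72 for SESN2. For NADPH supply it gave 0.20 for IDH1 and −0.66 for TKT, and for detoxification 3.71 for AKR1C3, −0.84 for CBR1 and −2.38 for ABCC3. For haem and iron it gave −0.46 for FTH1, −0.55 for FTL and −0.26 for TFRC, for peroxide defense −0.62 for SOD1, −0.37 for CAT and 0.55 for AIFM2, and for ATF4 targets −3.16 for SLC7A5 and 1.43 for VLDLR. TFRC rose in both steps, by 0.82 and 1.08, and FTL fell in both, by −0.83 and −0.28. GSTA4 had 0.26 in the first step and −0.33 in the second.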

How the results depend on the processing

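Of 1025 recomputed log2 fold changes of members, 965 kept their direction and, for tested genes, their side of the threshold. Of the rest, 20 passed it anew, 25 lost it and 15 changed sign. For NQO1, which was not tested, a value counted as kept if its sign held and it moved by less than the SD. This SD was the largest within a subline compared, in log2 CPM. The sign changed for values near 0: GCLC from VCaP-CT to VCaP-CT-ER was 0.04 with library totals, 0.02 without the filter, 0.00 with those sublines alone and −0.06 to 0.04 with single libraries left out, KEAP1 in the difference between the ENZ steps was 0.01 with library totals and −0.11 to 0.06 with libraries left out, SRXN1 in VCaP-CT against VCaP-T ranged from −0.37 to 0.13 with libraries left out (0.03, 0.00 and 0.13 without VCaP-T replicate 1 or 3 or VCaP-CT replicate 3), and NQO1 in VCaP-CT-BR against VCaP-CT ranged from −0.03, without VCaP-CT-BR replicate 3, to 0.16. The cause was not tested. Of 1308 values of named pathway genes, 11 lost their call.

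With each library left out in turn, the number of members called ranged from 4 to 6, 2 to 4, 6 to 8 and 4 to 4 in the 4 steps, in the order given in the text, and from 5 to 6 in the difference, against 4, 4, 8, 4 and 6. With a limit of 2-fold, the members called were 3, 1, 3 and 0 in the steps (the latter with 4 at an unadjusted edgeR p under 0.05 without the limit, and 4 by DESeq2) and 2 in the difference, and the pathway genes 28, 17, 7 and 11 in the steps and 13 in the difference, since fewer changes are that large. DESeq2 called 6, 4, 8, 4 and 6 members. The shares over all genes under the alternatives are not given here, so these counts are not read against the background. With at least 10 counts in every library SRXN1 drops out and 7 members remain.

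On average over all pairs of sublines, same-numbered libraries did not deviate together (mean correlation −0.008, from −0.694 to 0.727, over 9876 genes, with 0.003 for different numbers). Deviations were taken from the mean of each subline. The value for different numbers therefore follows largely from that for same numbers and is not a separate comparison. By pair of sublines, the mean ranged from −0.374 for VCaP-T with VCaP-CT (different numbers 0.189) to 0.394 for VCaP-CT with VCaP-CT-ER (different numbers −0.206). What same-numbered libraries of single pairs share was not tested. With the replicate block 4, 4, 8, 4 and 6 members and 66, 67, 59, 49 and 56 pathway genes were called. Depth limits SRXN1, HMOX1 and NQO1, which had under 50 counts in some libraries.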
